A study of Mus musculus with 15 samples.

Results

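The genes described here are 10 imprinted genes of the mouse, H19, Dlk1, Meg3, Peg3, Mest, Grb10, Plagl1, Ndn, Zim1 and Peg10, out of 18194 genes measured on expression arrays. They were taken from a list of names by gene symbol. Their probe sets, 36 in all, are those that the platform's gene table lists for that gene alone, or for H19 with Mir675. A probe set is a group of short probes that reads one transcript. Igf2, the imprinted neighbour of H19, is given only where its values stand beside those of H19. The only H19 probe set is listed for both Mir675 and H19, since the microRNA gene lies inside the H19 transcript, and it is called the H19/Mir675 probe set or H19 here.

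RNA of 15 mouse cell lines, populations of cells kept growing in culture, was hybridised to Affymetrix mouse arrays, with 1 array per line. Of these lines, 3 carry the genotype label AP and 12 the genotype label AKP. Neither the meaning of these letters nor a tissue is given in the labels, and the design text counts 10 AKP lines where the labels list 12. All lines were grown untreated in DMEM with serum. The 3 AP lines and 11 AKP lines are labelled tumour and AKP 6 adenoma, 10 lines are labelled female and 5 male, and the sources used here name no strain, age or tumour site. A pair label is given for 1 AP line, AP 1, and for 7 AKP lines, AKP 6 to AKP 12, and the main comparison did not use it. Each line was treated as a separate culture measured once, so p-values measure the spread between lines only.

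An imprinted gene is expressed mainly from the copy inherited from one parent, because that copy and the other carry different DNA methylation at a control region set in the germ line. Imprinted genes lie in clusters in which maternally and paternally expressed genes share such regions. Many of them act on growth in the embryo and placenta and fall to low levels in most tissues after birth. H19, Meg3, Grb10 and Zim1 are expressed mainly from the maternal copy in most mouse tissues, and Dlk1, Peg3, Mest, Plagl1, Ndn, Peg10 and Igf2 mainly from the paternal copy. An array reads the RNA of both copies together, so it does not show which copy was used.

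Values are log2 expression values as the authors deposited them, and the number of arrays limits their precision. Per-array medians lay between 3.91 and 4.17, and 35.9% to 39.5% of probe sets were below 3, the floor of dim values. A line is called above the floor for a gene at a value of 5 or more. Lines AP 1 and AKP 1 stood apart by cell type markers. The mean of 12 fibroblast and smooth muscle markers was 12.74 in AP 1 and 11.39 in AKP 1, with 11 of 12 above the floor in each. In the other lines this mean was 8.57 in AKP 8, 7.8 in AP 2, 7.2 in AP 3 and 4.39 to 5.77 in the other 10 AKP lines. The mean of 10 epithelial markers was lowest in AP 1, at 3.66 with 2 markers above the floor, and lay at 5.76 in AKP 1 with 5. The other 13 lines had 4 to 9 epithelial markers above the floor. Between 2 and 3 of 5 measured haematopoietic markers, at a mean of 5.18 to 6.77, and at most 1 of 4 endothelial markers, at a mean of 2.99 to 4.92, lay above the floor in any line.

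The members fell into a pair at the floor, a set that rose above the floor in few lines, and a pair, Grb10 and Plagl1, that was above it in more lines. Zim1 and Peg10 stayed below 5 in all lines. Dlk1, Meg3, Peg3 and Ndn were above the floor only in AKP 1, or in AKP 1 and AP 1. H19 was above it in those lines and in AP 2 and AP 3, Mest in AKP 1 and AKP 6, and Grb10 and Plagl1 in 6 and 13 lines. AKP 1 had 8 of the 10 members above the floor, AP 1 had 5, and the other 13 lines had 0 to 3. The share of all genes above the floor ran only from 53.1% to 57.6% across lines.

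**Figure D1:**
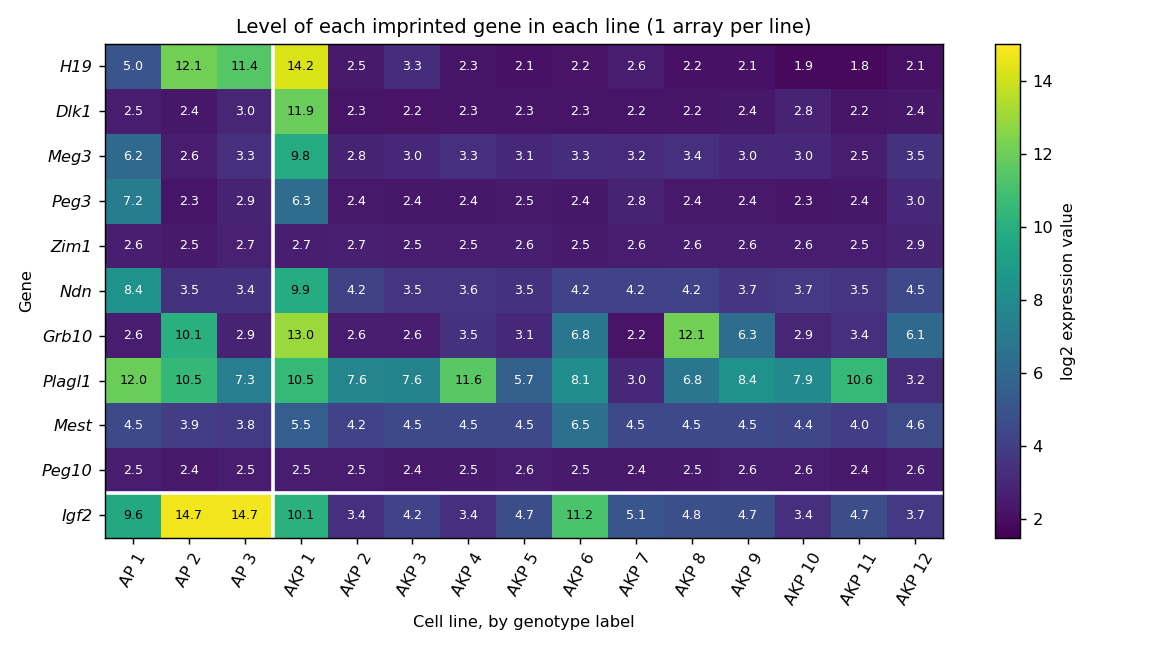
Log2 expression of the 10 imprinted genes and Igf2 in each of the 15 lines, each gene by its brightest probe set on average. AKP 1 is the highest line for H19, Dlk1, Meg3, Grb10 and Ndn, and Zim1 and Peg10 stay at the floor in every line.

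Comparing the groups asks which of these genes go with the genotype label. With all 15 lines, limma called 0 of the 10 members at an adjusted p under 0.05, against 1.90% of all genes (345 of 18194). At an unadjusted p under 0.05 it found 1, H19, against 16.5% of all genes (3007 of 18194). Of the 36 member probe sets, 0 were called and 2 had an unadjusted p under 0.05, against 1.29% of 45037 probe sets called and 14.8% at that unadjusted p. These 2 were the H19/Mir675 probe set and a Meg3 probe set with a difference of -0.08, which stayed at the floor, between 1.9 and 2.12, in all lines. The median difference of the members, AKP minus AP, was -0.18 on the log2 scale, and that of all genes 0.012.

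H19 codes a maternally expressed long RNA that is abundant in the embryo and is the source of miR-675. Igf2, the paternally expressed growth factor gene next to it, shares its control region and enhancers. H19 lay at 5.04, 12.13 and 11.45 in AP 1, AP 2 and AP 3. In the AKP lines it ran from 1.83 through a median of 2.19 to 14.21. The highest value of all was that of AKP 1, while the next AKP line, AKP 3, lay at 3.26, so 11 of 12 AKP lines were below every AP line.

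The mean of H19 was 9.54 ± 3.91 over the AP lines (SD, n = 3) against 3.27 ± 3.46 over the AKP lines (SD, n = 12), a log2 difference of -6.27 ± 2.20 (SE; limma adjusted p = 0.17). That result turned on AKP 1. Without that line the difference was -7.26 ± 1.03 (SE; limma adjusted p = 0.0027), where 2.63% of all genes were called. Without AKP 1 and AKP 8 it was -7.25 ± 1.08 (SE; limma adjusted p = 0.0041; 4.01% of genes called). Without AP 1 and AKP 1, the lines with the highest fibroblast markers, it was -9.51 ± 0.30 (SE; limma adjusted p = 1.8e-09; 2.78% of genes called). That fit left only AP 2 and AP 3 as the AP group and took out the AP line with the lowest H19. In all 3 of these fits the SE is small mostly because the AKP lines left in lay near the floor, between 1.83 and 3.26. The AP lines had an SD of 3.91 (n = 3). The p-values of these 3 fits are thus no measure of the spread among AP lines. Over all alternatives the adjusted p ran from 1.8e-09 to 0.94. H19 passed in 3 of 29, the 3 fits with left-out lines given above, which were all chosen with earlier results of these data known. The part of the fibroblast markers in the H19 level was not tested. AP 2 and AP 3, with H19 at 12.13 and 11.45, had marker means of 7.8 and 7.2, and AKP 8, with H19 at 2.16, had 8.57. The other 10 AKP lines, with H19 between 1.83 and 3.26, had marker means of 4.39 to 5.77.

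The authors' deposited table of their AKP against AP comparison lists 1 of the 10 members, H19. In the authors' deposited table its mean is 9.54 for AP and 2.29 for AKP, which differ by -7.25, with a step-up p of 0.0074. The mean over all 12 AKP lines was 3.27, and over the 10 lines without AKP 1 and AKP 8 it was 2.29. The deposited mean thus equals that over the 10 lines, among which AKP 1, the line with the most H19, is not counted.

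H19 and Igf2 were both above the floor in the 3 AP lines and in AKP 1, and both low in most other AKP lines. Igf2 lay at 9.64, 14.72 and 14.74 in AP 1, AP 2 and AP 3. In the AKP lines it lay at 10.14 in AKP 1, 11.17 in AKP 6, and between 3.36 and 5.06 in the other 10. AKP 6, the adenoma line, thus had Igf2 above the floor with H19 at 2.22. No test was run on this line by itself, because the labels give 1 adenoma. A second Igf2 probe set lay at 9.62 in AP 2 and 8.57 in AP 3 but stayed at 2.77 in AP 1, 2.80 in AKP 1 and 2.99 in AKP 6. The probe sets of Igf2 thus disagreed in those 3 lines, and the high Igf2 of AKP 6 rests on 1 of them.

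**Figure D2:**
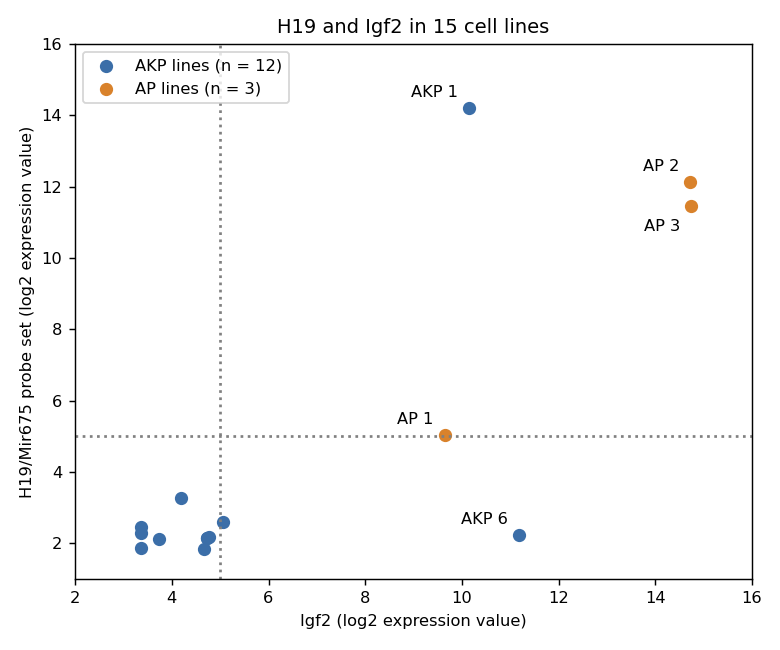
Log2 expression of H19 (the H19/Mir675 probe set, vertical axis) against that of Igf2 (horizontal axis), 1 point per line, AP and AKP in colour, dotted lines at 5. AP 2 and AP 3 are high for both, AKP 1 has H19 at 14.21 with Igf2 at 10.14, and AKP 6 has Igf2 at 11.17 with H19 at 2.22.

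The H19/Mir675 probe set does not tell the long RNA from the microRNA precursor inside it, and neither mature miRNA was measured. Both are given here because the probe set carries their name. RefSeq places both inside H19 on the minus strand of chromosome 7 (GRCm38.p6). Each has 22 bases, and the capitals mark the seed, bases 2 to 8, which pairs with target RNAs. The seeds of the arms differ.
miR-675-5p: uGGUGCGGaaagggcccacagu
miR-675-3p: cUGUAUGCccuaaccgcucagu

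Dlk1 and Meg3 are neighbours in one imprinted cluster. Dlk1 codes a membrane protein related to the Notch ligands that holds back the maturation of fat cells and other progenitors, and Meg3 a maternally expressed long RNA. Dlk1 was seen in 1 line alone. It lay at 11.89 in AKP 1, at 2.23 to 2.78 in the other AKP lines and at 2.52, 2.37 and 2.95 in the AP lines. These values are those of 1 of 2 Dlk1 probe sets, and the other did not exceed 2.15 in any line. The difference between groups was 0.51 ± 1.59 (SE; limma adjusted p = 0.91), with an AKP mean of 3.13 ± 2.77 (SD, n = 12) set by AKP 1. Without AKP 1 it was -0.29, of opposite sign.

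Meg3 was above the floor in AKP 1 and AP 1. It lay at 6.16, 2.58 and 3.33 in the AP lines, at 9.81 in AKP 1 and at 2.53 to 3.48 in the other AKP lines. The groups overlapped, and the difference was -0.36 ± 1.21 (SE; limma adjusted p = 0.92). Of 11 Meg3 probe sets, 4 reached 6 in some line, and these 4 did not treat the lines alike. One of them lay at 10.6 in AKP 1 and 7.45 in AP 1, whereas another lay at 9.03 in AKP 1 and 1.95 in AP 1. The array files do not say which Meg3 transcripts each probe set reads.

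Rian, the maternally expressed long RNA that hosts small nucleolar RNAs beyond Meg3, lay at 5.52 in AKP 1 and 5.68 in AP 1, and its highest value elsewhere was 2.87. Mirg, the microRNA host further along, did not exceed 2.9. In this cluster Meg3 and Rian were thus above the floor in both AKP 1 and AP 1, and Dlk1 in AKP 1 alone. Both lines also had 11 of 12 fibroblast and smooth muscle markers above the floor, against 2 to 9 in the other 13 lines. Meg3 and Rian lay below 5 in AP 3 and AKP 8, which had 9. The part of those markers in the cluster's levels was not tested. In RNA of a whole culture, fewer expressing cells and less RNA per cell cannot be told apart.

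Peg3 and Zim1 code zinc finger proteins of one cluster. Peg3, which binds DNA and in the mouse bears on growth and maternal care, lay at 7.24 in AP 1 and 6.35 in AKP 1. It lay at 2.28 and 2.85 in AP 2 and AP 3 and at 2.34 to 2.98 in the other AKP lines. The difference was -1.32 ± 0.93 (SE; limma adjusted p = 0.52), and it turned to 0.24 without AP 1. Only 1 of 5 Peg3 probe sets reached 6. The maternally expressed Zim1 lay between 2.45 and 2.87 in all lines, and the neighbours Usp29 and Zim3 did not exceed 3.65 and 2.51. In AP 1 and AKP 1, Peg3 was thus the only one of these 4 genes read above the floor. Zim1 has 1 probe set here, and a low value on it cannot be told from a probe set that does not work.

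Ndn codes necdin, a protein of the MAGE family that is best known from neurons that have left the cell cycle. It lay at 8.43 in AP 1 and 9.86 in AKP 1, at 3.46 and 3.43 in AP 2 and AP 3 and at 3.50 to 4.5 in the other AKP lines. The difference was -0.71 ± 1.23 (SE; limma adjusted p = 0.83), and it was 0.95 without AP 1. Of 8 Ndn probe sets, 5 reached 6, all of them higher in AKP 1 than in AP 1, and the 3 others stayed at the floor in all lines. Among the neighbours, Magel2 did not exceed 3.66. Peg12 lay at 6.44 in AKP 1 and 5.12 in AKP 9, and Mkrn3 at 5.89 in AKP 1, 5.62 in AP 2 and 6.26 in AKP 7, a line in which 0 of the 10 members were above the floor.

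**Figure D3:**
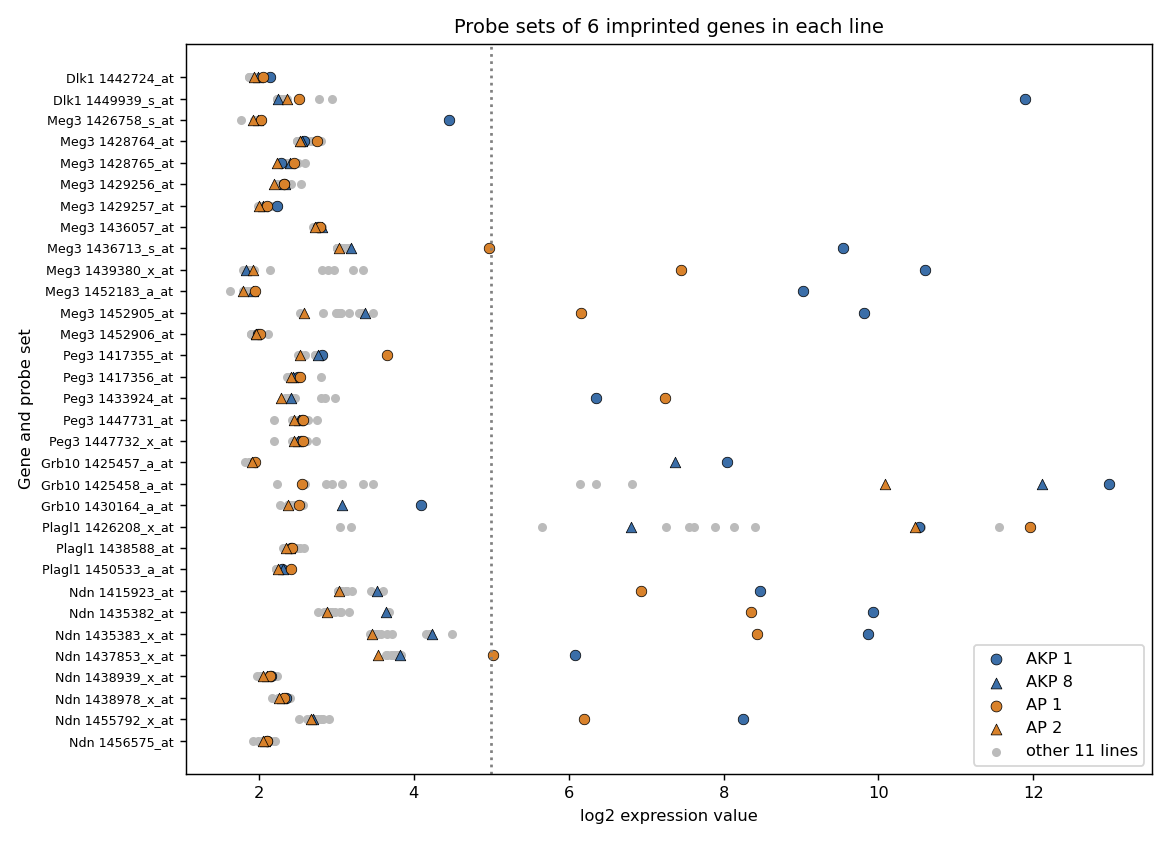
Log2 expression (horizontal axis) for each probe set of 6 members, 1 point per line, with AP 1, AP 2, AKP 1 and AKP 8 marked and the other 11 lines in grey; the dotted line is at 5. The 5 Ndn probe sets that leave the floor do so in both AP 1 and AKP 1, and 1 Meg3 probe set with 9.03 in AKP 1 stays at 1.95 in AP 1.

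The promoter windows of Dlk1, Meg3, Peg3 and Ndn are printed because these 4 genes left the floor in the same 1 or 2 lines. RefSeq (GRCm38.p6) gave a window of 250 bases before to 50 bases after the start for 8 of the 10 members, 12 windows in all. H19 and Peg10 are not among them. The capitals mark CG pairs, the bases at which a promoter can be methylated. The windows run 5′ to 3′ on the gene's strand at chr12:109452573-109452872 (Dlk1, plus strand), chr12:109540746-109541045 (Meg3, plus strand), chr7:6730370-6730669 (Peg3, minus strand) and chr7:62348027-62348326 (Ndn, plus strand), and for Meg3 the window of its first listed start is given.
Dlk1: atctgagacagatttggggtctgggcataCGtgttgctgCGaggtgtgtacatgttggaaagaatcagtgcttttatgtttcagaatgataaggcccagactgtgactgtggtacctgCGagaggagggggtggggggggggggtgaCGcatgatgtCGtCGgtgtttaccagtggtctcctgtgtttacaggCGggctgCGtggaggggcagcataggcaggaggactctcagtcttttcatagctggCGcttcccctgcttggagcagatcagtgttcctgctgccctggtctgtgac
Meg3: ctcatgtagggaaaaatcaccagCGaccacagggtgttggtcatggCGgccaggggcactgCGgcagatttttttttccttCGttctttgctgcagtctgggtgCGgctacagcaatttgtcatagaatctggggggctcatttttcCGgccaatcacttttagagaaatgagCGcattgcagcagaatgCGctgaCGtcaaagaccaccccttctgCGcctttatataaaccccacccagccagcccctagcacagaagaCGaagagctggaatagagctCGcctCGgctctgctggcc
Peg3: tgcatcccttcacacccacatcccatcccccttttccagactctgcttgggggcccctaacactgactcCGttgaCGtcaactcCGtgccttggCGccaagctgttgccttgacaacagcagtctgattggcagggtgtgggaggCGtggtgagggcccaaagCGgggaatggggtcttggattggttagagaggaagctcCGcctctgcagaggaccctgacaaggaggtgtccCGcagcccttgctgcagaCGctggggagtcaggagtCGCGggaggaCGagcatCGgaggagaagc
Ndn: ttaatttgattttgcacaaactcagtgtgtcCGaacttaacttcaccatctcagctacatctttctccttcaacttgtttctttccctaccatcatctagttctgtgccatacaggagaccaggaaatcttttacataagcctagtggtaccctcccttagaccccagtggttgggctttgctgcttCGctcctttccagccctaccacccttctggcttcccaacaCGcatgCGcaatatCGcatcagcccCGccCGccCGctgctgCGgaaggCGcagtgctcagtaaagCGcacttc

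CG pairs numbered 9 in the Dlk1 window, 13 in Meg3, 13 in Peg3 and 11 in Ndn. The median of all 32851 windows was 7, and 45.78%, 37.91%, 37.91% and 41.38% of windows held at least as many. These counts of the printed windows lay above the median without being rare. A second Meg3 window, not printed, held 1 CG pair, a number reached by 94.57% of windows. Grb10 had a window with 45 CG pairs, a number reached by 1.93% of windows, and another with 9. Plagl1 had a window with 26 and Zim1, which stayed at the floor, a window with 20. The Peg3 window holds the letters GGGGCCCC, the core element that Plagl1 protein is known to bind. These letters read the same on both strands and occur in 1.08% of all windows, and in 1 of the 12 member windows. GCCATNTT, the letters of a YY1 site, sought on both strands, occur in 0 of the 12 windows and in 6.05% of all. The array data hold no measure of methylation or of protein binding.

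Grb10, Plagl1 and Mest varied across lines outside AP 1 and AKP 1 as well. Grb10 codes an adaptor protein that binds the insulin and IGF1 receptors and dampens their signals. It lay at 2.56, 10.08 and 2.87 in the AP lines, and at 12.97 in AKP 1, 12.11 in AKP 8, 6.82 in AKP 6, 6.35 in AKP 9 and 6.14 in AKP 12. The other 7 AKP lines lay between 2.23 and 3.48. High and low lines thus occurred in both groups, and the difference was 0.22 ± 2.36 (SE; limma adjusted p = 0.98). A second Grb10 probe set also rose above the floor in AKP 1, at 8.05, and in AKP 8, at 7.37, but in AP 2, where the other lay at 10.08, it lay at 1.91. Ddc, the neighbour of Grb10, did not exceed 3.38.

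Plagl1 codes a zinc finger transcription factor that in the mouse is known to act on other imprinted genes, H19, Igf2 and Dlk1 among them. Of the members it was the one above the floor in most lines, 13 of 15. It lay at 11.96, 10.47 and 7.26 in the AP lines, and from 3.05 (AKP 7) through a median of 7.76 to 11.55 (AKP 4) in the AKP lines. The means were 9.89 ± 2.40 over the AP lines (SD, n = 3) and 7.58 ± 2.67 over the AKP lines (SD, n = 12). The ranges overlapped, and the difference was -2.32 ± 1.64 (SE; limma adjusted p = 0.53). It was -3.63 without AP 3 and -1.29 without AP 1. Of the 5 lines with Plagl1 above 10, AP 1, AP 2 and AKP 1 had H19 at 5.04, 12.13 and 14.21, and AKP 4 and AKP 11 had it at 2.29 and 1.83. Dlk1 lay at 11.89 in AKP 1 and did not exceed 2.52 in the other 4. Plagl1 and these genes were not tested as pairs, because H19 and Dlk1 fell into separate clusters of lines. The value rests on 1 of 3 Plagl1 probe sets, since the others did not exceed 2.58.

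Mest, a paternally expressed gene for a protein of the hydrolase fold, lay at 4.53, 3.94 and 3.80 in the AP lines. In the AKP lines it ran from 3.96 to 6.47, with AKP 6 highest, AKP 1 next at 5.51 and the others at 4.58 or lower. The difference was 0.58 ± 0.40 (SE; limma adjusted p = 0.52). Its neighbour Copg2 lay between 10.37 and 11.87 in all lines. Peg10, derived from a retrotransposon and needed for the placenta, lay between 2.40 and 2.62 in all lines. Sgce, which lies head to head with Peg10 and codes epsilon-sarcoglycan, lay at 12.64 in AP 1, 12.41 in AKP 1, 8.95 in AKP 4, 7.8 in AKP 11 and no higher than 4.74 elsewhere. Peg10 has 1 probe set here, and a low value on it cannot be told from a probe set that does not work.

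**Figure D4:**
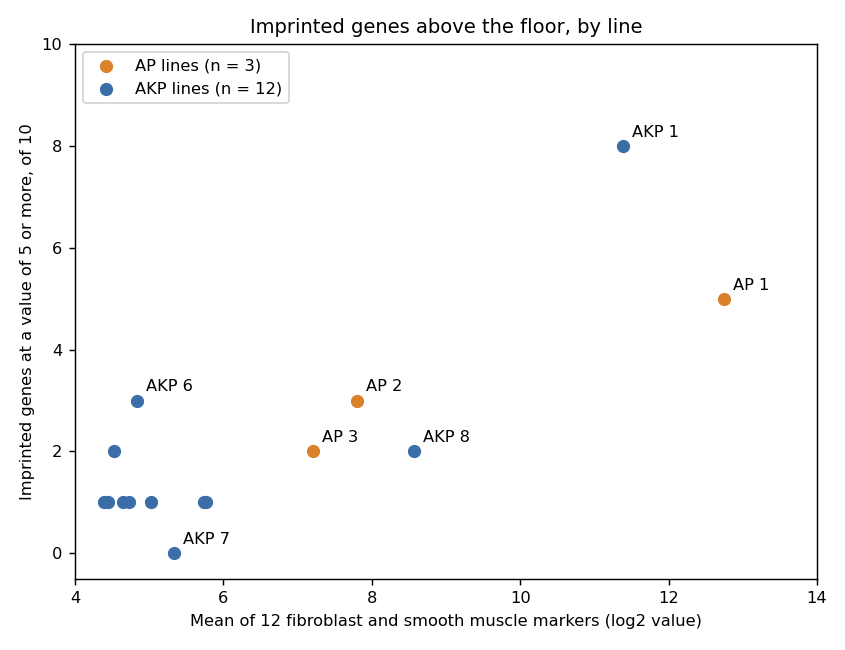
For each line, the number of the 10 members above the floor (log2 of 5 or more) against the mean log2 level of the 12 fibroblast and smooth muscle markers, AP and AKP marked. AKP 1 and AP 1 lie at the upper right with 8 and 5 members, and the other 13 lines have 0 to 3.

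The 7 members that passed limits on level and spread were each highest in AKP 1 or AP 1. Among genes that reached 6 in some line and had an SD of at least 1 over the 15 lines, AKP 1 was the highest line for 5 of 7 members, H19, Dlk1, Meg3, Ndn and Grb10, and for 9.38% of 3551 genes. AP 1 was the highest for the other 2, Peg3 and Plagl1, and for 19.97% of those genes. The spread of H19 over the lines was higher than that of 99.9% of genes, that of Grb10 higher than 99.5%, and that of Mest higher than 66.2%. These shares describe the lines and were not tested. Dlk1, Meg3, Peg3 and Ndn met the limits on level and spread only through AKP 1 or AP 1. In the other 13 lines they did not exceed 2.95, 3.48, 2.98 and 4.5. For these genes the limits thus fixed AKP 1 or AP 1 as the highest line. Mest, highest in AKP 6, had an SD of 0.66 and was left out by the limits.

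Of 53 pairs of genes set for the 12 AKP lines, 50 could not be tested, because a gene was low or flat or because its lines fell into separate clusters, as for H19, Igf2, Dlk1, Meg3, Peg3 and Ndn. None of the 3 others passed in a two-sided permutation test. Mest and Grb10 gave a Pearson r of 0.47 (permutation p = 0.11, adjusted 0.32) and a Spearman rho of 0.52 (p = 0.089, adjusted 0.27). Without the 2 lines farthest from the median of Mest, r was 0.28. Grb10 and Plagl1 gave an r of 0.18 (permutation p = 0.58, adjusted 0.73) and a rho of 0.39 (p = 0.21, adjusted 0.32). Without the 2 lines farthest from the median of Grb10, r was -0.01. Mest and Plagl1 gave an r of 0.11 (permutation p = 0.73, adjusted 0.73) and a rho of -0.04 (p = 0.9, adjusted 0.9). With the 2 lines farthest from the median of Mest left out, r was -0.5.

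The genes most like each member were ranked by Pearson r over the 15 lines, which share no array but do share the lines that stand apart. For H19 these were Tmem8b (r = 0.988), Hoxd3os1 (r = 0.975) and Cerox1 (r = 0.967), the last with values of only 1.73 to 2.11, below the floor in all lines. For Dlk1 they were Tal1 (r = 0.998), Trim71 (r = 0.997) and Tcam1 (r = 0.996), each highest in AKP 1, so that 1 line made the likeness. Those of Meg3 were Tro, Meox1 and Meiob (r = 0.99, 0.986 and 0.983), and those of Ndn were Bend6, Gng8 and Armcx6 (r = 0.984, 0.983 and 0.982), all 6 also highest in AKP 1. Those of Peg3 were the imprinted Rian, Srpx2 and Medag (r = 0.992, 0.992 and 0.991), highest in AP 1. Tcam1 and Tro did not exceed 4.5 and 4.64. For Meg3, Peg3 and Ndn, AKP 1 and AP 1 likewise made the likeness, since these 3 genes did not exceed 3.48, 2.98 and 4.5 in the other 13 lines. The height of r thus does not compare such genes with Grb10 and Plagl1, which had no partner as close. Their nearest were Mettl23 (r = 0.832) and Prss30 (r = 0.823, no value above 3.3) for Grb10 and Il13ra1 (r = 0.828) and Klhl7 (r = 0.797) for Plagl1, followed by LOC102631979 (r = 0.786) and Zbtb41 (r = 0.759).

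Among other imprinted genes, 41 of the 49 listed were measured, and limma called 0 higher in AKP lines (0.791% of all genes) and 1 lower (1.10% of all genes), with 6 at an unadjusted p under 0.05, which 16.5% of all genes had. Their median difference was -0.02. Between 18 and 24 of them were above the floor in each line, 18 in AP 1 and 24 in AKP 1 and in AKP 4, while AP 1 had 5 of the 10 members and AKP 4 had 1. The called gene was Gnas, which codes the stimulatory G protein alpha subunit. It lay at 15.63, 15.67 and 15.80 in the AP lines and at 15.14 to 15.55 in the AKP lines. The groups did not overlap, which held for 2.13% of all genes. The difference was small, -0.33 ± 0.08 (SE; limma adjusted p = 0.045). It was called in 6 of 30 alternatives, with an adjusted p from 0.031 to 0.99, and with each array centred on its median it was -0.22 (limma adjusted p = 0.18). The mean over its probe sets gave -0.08, and its probe set with the highest SD gave -0.02 (limma adjusted p = 0.99).

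**Figure D5:**
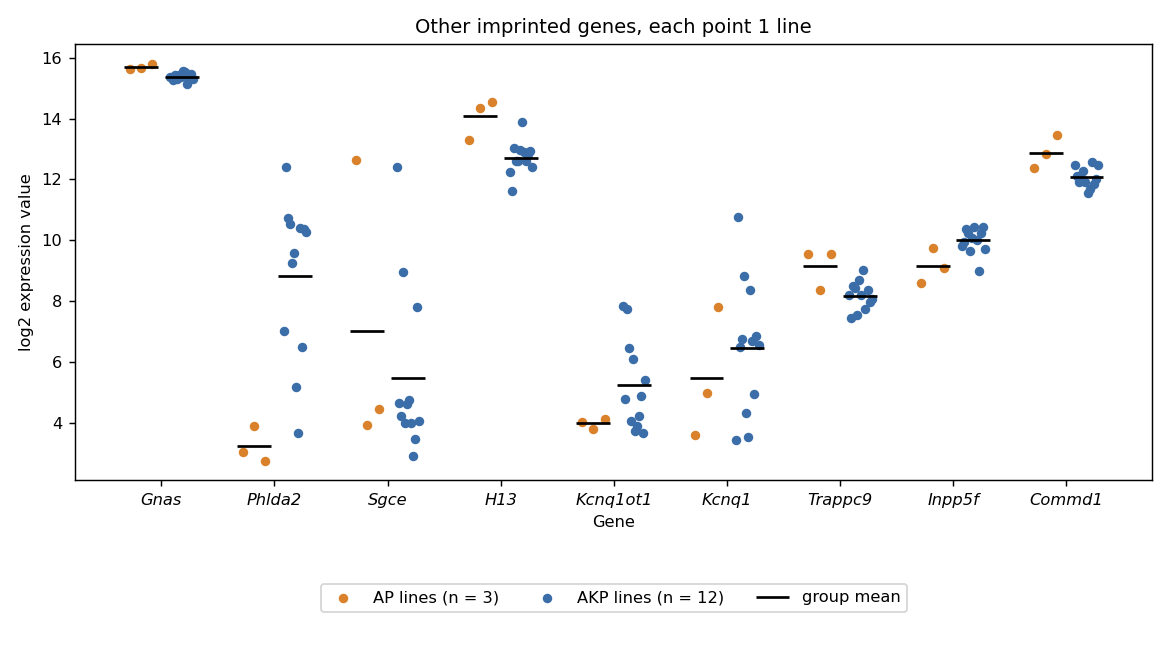
Log2 expression of the 9 named imprinted genes outside the 10, 1 point per line for the 3 AP and 12 AKP lines, with group means as bars. The AP and AKP points of Gnas do not overlap, and 11 of 12 AKP points of Phlda2 lie above all AP points.

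Phlda2, a maternally expressed gene that limits growth of the placenta, showed the widest difference of that list. It lay at 3.03, 3.88 and 2.76 in the AP lines and at 3.68 in AKP 8, 5.17 in AKP 7 and up to 12.4 in the AKP lines, 11 of 12 of which were above every AP line. The difference was 5.60 ± 1.51 (SE; limma adjusted p = 0.077). Without AKP 8 it was 6.07 (limma adjusted p = 0.023), and over all alternatives the adjusted p ran from 0.006 to 0.39. Without AKP 1 and AKP 8 it was 6.29 (limma adjusted p = 0.016). In the authors' deposited table, whose AKP means match those 10 lines here, Phlda2 has a difference of 6.29 with a step-up p of 0.029. Direction was thus opposite to that of H19, a maternally expressed gene of the neighbouring cluster on the same chromosome, and the difference between these genes was not tested.

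The remaining named genes of that list did not pass with all lines. H13, a signal peptide peptidase gene, averaged 14.07 ± 0.67 over the AP lines (SD, n = 3) and 12.72 ± 0.54 over the AKP lines (SD, n = 12), differing by -1.35 ± 0.35 (SE; limma adjusted p = 0.067), and passed without AP 1 (-1.74; limma adjusted p = 0.035) and without AKP 7 (limma adjusted p = 0.030). The difference was -0.96 ± 0.31 for Trappc9, a vesicle transport gene (limma adjusted p = 0.14), and -0.81 ± 0.23 for Commd1 (limma adjusted p = 0.091). It was 0.86 ± 0.28 for the inositol phosphatase gene Inpp5f (limma adjusted p = 0.14). For Sgce it was -1.52 ± 2.00 (limma adjusted p = 0.76), for the potassium channel gene Kcnq1 1.00 ± 1.36 (limma adjusted p = 0.77; 0.06 without AP 1 and 2.17 without AP 3) and for its antisense RNA Kcnq1ot1 1.25 ± 0.86 (limma adjusted p = 0.51). Without AP 1, Commd1 passed (limma adjusted p = 0.042), and without AP 2, Trappc9 did (limma adjusted p = 0.043). Over all alternatives the adjusted p ran from 0.03 to 0.64 for H13, from 0.031 to 0.75 for Commd1 and from 0.043 to 0.84 for Trappc9.

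Genes that set, keep or remove imprints showed no call either. Of 18 listed, 17 were measured, limma called 0 (1.90% of all genes), and 3 had an unadjusted p under 0.05 (16.5% of all genes). Their median difference was 0.05. Dnmt3b, a methyltransferase that places new DNA methylation, averaged 6.38 ± 0.93 over the AP lines (SD, n = 3) and 4.64 ± 0.83 over the AKP lines (SD, n = 12), a difference of -1.74 ± 0.53 (SE; limma adjusted p = 0.11). Tet1, which oxidises methylated cytosine, lay at 5.73 in AP 1, 5.43 in AP 2 and 6.03 in AKP 1 and did not exceed 3.23 elsewhere, with a difference of -1.55 ± 0.66 (SE; limma adjusted p = 0.26). Without AKP 1, both Dnmt3b (limma adjusted p = 0.049) and Tet1 (limma adjusted p = 0.041) passed. Over all alternatives the adjusted p ran from 0.022 to 0.78 for Dnmt3b and from 0.041 to 0.86 for Tet1. Zfp57, which keeps methylation at imprinted control regions, differed by 1.55 ± 0.70 (SE; limma adjusted p = 0.28).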

How the data were processed

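RNA of 15 cell lines was hybridised to 1 array each, per the labels' protocols. The authors deposited 1 log2 expression value per probe set and line; how they were corrected, summarised and scaled, and with which software, is not given in the sources used here, and no genome build is named. The authors' deposited table of their comparison holds log2 group means, p-values, step-up p-values, t scores, ratios and fold changes between the groups, per the file headers; its log2 means and step-up p-values are quoted.

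Of 45101 probe sets, 64 controls were left out and 45037 tested. The platform's gene table named 1 gene for 34945, several for 932 and none for 9160. Those with several were not assigned to a gene, apart from the H19/Mir675 probe set. Each gene was represented by its probe set of highest mean in the 15 lines. No scaling was added and dim genes were kept. The genotype label set the groups. AKP was compared with AP without covariates by lmFit and eBayes of limma 3.58.1 (R 4.3.3), two-sided, with Benjamini-Hochberg adjustment over all genes and a threshold of 0.05. The fit was tested on simulated data. Pairs of genes were tested over the AKP lines with 100000 permutations, in Python 3.11.15, when both reached 6 with an SD of at least 0.5.

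The members and lists were chosen with earlier results of these data known. Named genes are the 10 members and Igf2, the called genes of a list of 49 other imprinted genes with up to 8 of its largest differences at a group mean of at least 5, and the 3 of 18 imprint regulators with the lowest p. The 3 genes most like each member reaching 6 with an SD of at least 1 are named too. Cluster neighbours and single-line values were chosen after their values were seen. Marker lists cover epithelial, fibroblast and smooth muscle, haematopoietic and endothelial cells. Alternatives covered scaling, probe set rule, filters on dim genes, covariates, array weights, the variance model, a replicate block, Welch's statistic and left-out lines. Deviations of AP 1 and AKP 1 from their group means correlated at 0.46, but those of lines 2 and 3 at -0.04 and -0.06. The line numbers were thus not taken as pairs, and the pair label was used only as a covariate in an alternative. Promoter and miRNA sequences are from RefSeq (GRCm38.p6).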

Additional observations from a re-analysis of the deposited data

How the results depend on the processing

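The 345 genes called became 191 with a filter at the 60th percentile of level, where 0 members remain, 153 with array weights, 180 with Welch's statistic, 729 with AKP lines 1 and 8 left out, 216 with the adenoma line left out and 177 to 584 without 1 line at a time. The count of members called, 0, was 1 without AKP 1 and AKP 8 and without AP 1 and AKP 1, and 0 to 1 without 1 line; Welch's statistic called 0, with 0 unadjusted. Member probe sets called were 0 to 1 without 1 line and 1 without AP 1 and AKP 1, where the 582 probe sets called became 944; without 1 line these were 307 to 1290. With the replicate block, which pairs lines by number only, 0 genes, 0 probe sets and 0 members were called (2043 genes unadjusted). The differences were then -2.90 for H19 and 2.85 for Dlk1, with the sign kept. They changed sign to 1.19 for Meg3, 0.75 for Ndn and 0.09 for Sgce. Differences also changed sign without AP 1 and AKP 1, to -0.33 for Dlk1, 0.15 for Meg3, -1.78 for Grb10, 0.45 for Ndn and 0.66 for Sgce; without AKP 1 and AKP 8, to -0.28 for Dlk1 and -1.21 for Grb10; and for Grb10 with array weights (-2.18) and with sex as a covariate (-0.41). Without 1 line the differences ran from -0.29 to 0.68 for Dlk1, -1.09 to 0.7 for Meg3, -2.24 to 0.24 for Peg3, -1.09 to 2.67 for Grb10, -1.55 to 0.95 for Ndn, -3.06 to 1.29 for Sgce, -3.63 to -1.29 for Plagl1, 0.06 to 2.17 for Kcnq1 and -8.52 to -4.97 for H19. The cause was not tested. Of 608 single-gene values under alternatives, 539 kept direction and side of the threshold, 32 lost and 16 gained a call, and 21 changed sign. With centred arrays the median of all genes' differences was 0.116 in place of 0.012, and the calls were 256 higher and 161 lower, against 144 and 201; array weights gave 25 and 128. Testable pairs passing stayed at 0, and AKP lines without 1 and 8, without 1 or without 6 left no testable pair. Without AKP 7 or without AKP 8 the pairs of Grb10 dropped out, and only 1 pair, Mest with Plagl1, could be tested. Values near the floor limit what a low probe set can show.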

Other observations

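Levels of further imprinted genes outside the 10 ran from the floor in all lines but 1 to well above it in all. Rasgrf1, which codes an exchange factor for Ras proteins, lay at 6.57 in AKP 1 and between 2.86 and 3.06 in the other 14 lines. Kcnq1ot1 was highest in AKP 1, at 7.84, but reached 7.75 in another line. Igf2r, which codes the receptor that clears IGF2, lay between 8.94 and 10.48 in all lines. Airn, the paternally expressed RNA antisense to it, lay between 6.18 and 10.47. Cdkn1c, a cell cycle inhibitor gene of the cluster that holds Phlda2, ranged from 3.8 to 8.47, and Asb4 lay at 6.73 in AKP 10, 5.19 in AP 3 and at most 3.4 elsewhere. Of the 41 measured genes, 28 reached 6 in some line and 12 stayed below 5 in all. These genes were picked after their values were seen, and none of these patterns was tested.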
